A study of Gallus gallus and Dromaius novaehollandiae and Alligator mississippiensis with 60 samples.

Results

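The claw and the body scale of the American alligator (Alligator mississippiensis) were compared in developing epidermis, over every gene with an alligator value. Members were chosen by label alone: 4 claw libraries and 8 body scale libraries, 12 of the 60 libraries in the deposited table. The claw libraries came from placodes at Ferguson stage 21 and from the morphogenesis phase at stage 22, with 2 libraries in each group. Flank scales, which the labels call symmetric, gave 2 placode libraries at stage 22 and 2 morphogenesis libraries at stage 23. Femoral scales, which the labels call asymmetric, gave 2 placode libraries at stage 21 and 2 morphogenesis libraries at stages 23 to 24. The labels name no treatment of the embryos, and all 12 libraries were epidermis lifted from dermis with dispase at 10 mg/mL and 4 °C over 13 h. Flank and femoral scale counted equally, and placode and morphogenesis counted equally, so each site and phase carried the same weight whatever its spread. The same claw difference in birds was taken against the scutate scale, the large foot scale, from 8 chicken and 7 emu epidermis libraries, in placodes at Hamburger-Hamilton stages 36 (claw) and 37 (scale) and in morphogenesis at stages 38 and 40.

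Claws and scales are both cornified products of epidermis. In crocodilians and birds, the living members of the archosaurs, the surface layers are built from keratins together with corneous beta-proteins, once called beta-keratins. Many such appendages begin as placodes, local thickenings of the epidermis that exchange signals with the dermis beneath, and then take their shape in a morphogenesis phase. A claw sheathes the tip of a digit, while body scales form a pattern across the trunk and limbs.

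Genes are listed in every species by chicken Ensembl identifier. No identifier was paired with a symbol here (0 matches in the reference table), so no gene is given a role below, and markers of epidermis or of other cell types could not be looked up by name. Of 17889 genes, 9295 have an alligator value: 6150 of these also have an emu value and 3145 have none. Values are given as TPM, transcript abundances relative to gene length and to a total. They keep no record of sequencing depth, so the counting error behind a value is unknown. Over the 9295 genes with an alligator value, they summed to between 619786 and 619877 TPM in each of the 12 libraries. Levels, shares and counts by direction are thus relative to a near-constant sum over the listed genes. The tests ran on 7811 genes that reached 1 TPM in at least 2 of the 12 libraries, with limma on log2(TPM + 1), one mean per group, and Benjamini-Hochberg adjustment over all 7811. A gene was called at an adjusted p below 0.05, and every difference below is claw minus scale on that log2 scale with its standard error (SE). The titles give each of the 12 alligator libraries its own specimen number, so p-values measure the spread between these specimens. In bulk tissue, fewer cells of a type and less RNA per cell cannot be told apart.

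The claw libraries stood apart from the scale libraries along the main axis of variation. The first principal component held 64.1% of the variance and placed the claw morphogenesis libraries at 72.8 and 73.1, the claw placode libraries at 43.7 and 28.6, and all 8 scale libraries between -33.6 and -14.3. Between 7127 and 7569 genes reached 1 TPM in a library. Of the TPM listed over genes with an alligator value, the 10 most abundant took 8.53% to 10.0% in the claw libraries. In the scale libraries the share was 12.1% to 15.7%, so over the listed genes claw was the less concentrated. Replicates correlated at r = 0.985 in claw placode, the lowest of the 6 groups, and up to 0.996. Claw placode replicate 2 lay nearer to the scales than replicate 1. The sequencing lanes and the prefix of the specimen numbers, whose meaning is not stated, both follow the appendage. The claw libraries ran in lanes 1 and 2, femoral scale in lane 3 and flank scale in lane 7. Body position follows it too, as the labels name foot claws on one side and flank or femoral scales on the other. Appendage, body position, lane and prefix thus cannot be told apart.

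**Figure D1:**
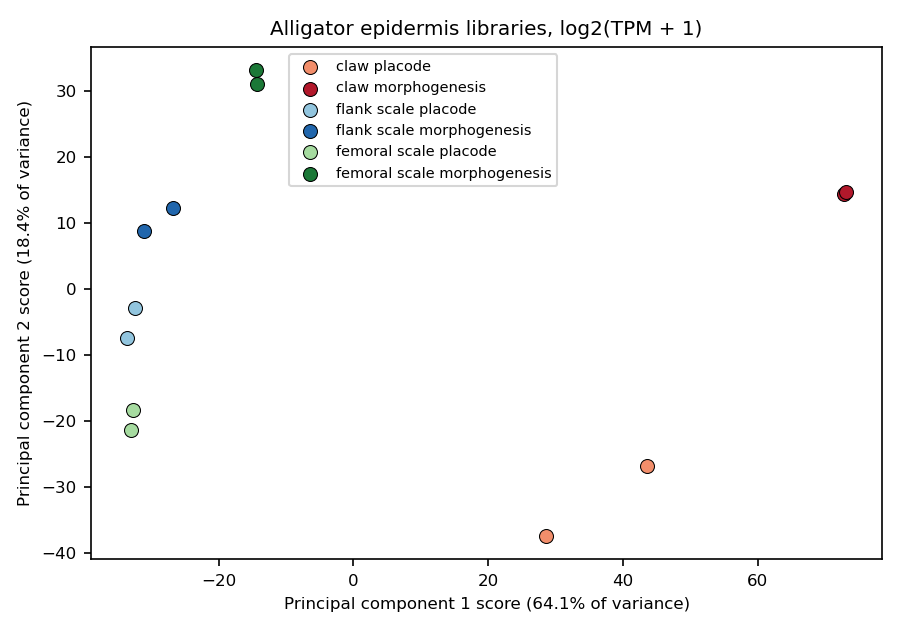
Positions of the 12 alligator libraries on the first and second principal components of log2(TPM + 1), which hold 64.1% and 18.4% of the variance; each point is 1 library, coloured by group. The 4 claw libraries lie at 28.6 or higher on the first component and all 8 scale libraries lie at -14.3 or lower.

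Over both phases, most tested genes differed between claw and body scale. In claw, 3281 genes were higher (42% of those tested) and 2413 were lower (30.9%), 72.9% in all. Differences of at least 2-fold were fewer, at 790 higher (10.1%) and 625 lower (8%), and 70 genes were higher and 41 lower by at least 8-fold. The median over all tested genes was 0.09, near 0. All 4 claw libraries lay above all 8 scale libraries for 1668 genes (21.4%) and below all of them for 726 (9.29%). When libraries were rescaled by median-of-ratios factors the calls were 2919 higher and 2852 lower. With quantile normalization they were 2716 and 2916, so which direction held more genes depended on the scaling. Both settings bring libraries to a common middle level. Medians near 0 and counts near balance thus follow largely from them, and they cannot decide which direction holds more genes.

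ENSGALG00000019721 had the largest positive difference among genes whose claw and scale libraries did not overlap. It stood at 518 and 46.9 TPM in the claw placode libraries and at 4343 and 2772 TPM in the claw morphogenesis libraries, and it was listed at 0 in all 8 scale libraries. Claw and scale did not overlap, and the claw morphogenesis libraries were the highest of the 4. The gene passed the filter of 1 TPM through claw libraries alone, so its p-values carry that selection. The fitted difference was 9.53 (SE 0.53, adjusted p = 5.9e-07), but with scale at 0 this size depends on the pseudocount and is no bound. The fit pooled a single spread over the 6 groups, and the scale libraries at 0 added none to it. The SE and p-values of this gene thus understate the spread between its claw libraries.

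ENSGALG00000000351 was next. Its claw values were 108 and 84.8 TPM at the placode phase and 369 and 341 TPM at morphogenesis, whereas scale values ran from 0.287 to 1.28 TPM with a median of 0.54. Every claw library was far above every scale library, and the morphogenesis claws were above the placode claws. The difference was 6.82 (SE 0.11, adjusted p = 7.7e-12).

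The genes lowest in claw showed the reverse arrangement, with high values in every scale library of both sites. ENSGALG00000000839 had 0.701 and 2.27 TPM in claw placode and 0.362 and 0.587 TPM in claw morphogenesis, against 169 to 339 TPM in the scales (median 239). The groups were widely separated, and no claw library held over 3 TPM. The scale libraries alone were enough to pass the filter, and the claw libraries alone were not, so the p-values carry that selection. The difference was -6.98 (SE 0.15, adjusted p = 1.5e-10).

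ENSGALG00000014908 had 0.384 and 1.09 TPM in claw placode and 0 and 0.193 TPM in claw morphogenesis, against 83.8 to 161.9 TPM in the scales (median 138). Here too the claw libraries were low without exception, and the flank libraries were the highest of the scales. As for ENSGALG00000000839, the filter was passed through the scale libraries and not through claw alone. The difference was -6.57 (SE 0.14, adjusted p = 9.6e-11).

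The differences are also given for each body site apart, and the 2 comparisons share the 4 claw libraries. The genes were named for large differences on condition that claw and scale libraries do not overlap. The same direction at each site was thus fixed by that choice, and the values are a description. For ENSGALG00000000351 the difference was 6.95 against flank scale alone and 6.70 against femoral scale alone (SE 0.12 for each). For ENSGALG00000000839 it was -7.18 against flank and -6.79 against femoral scale (SE 0.17 for each). For ENSGALG00000014908 it was -6.84 and -6.29 (SE 0.16 for each). Flank values of the last gene ran from 142 to 161.9 TPM and femoral values from 83.8 to 134 TPM, so the scale sites themselves did not overlap for it. The largest adjusted p of the 6 was 1.2e-09, and these p-values carry the selection of the genes on the same libraries.

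**Figure D2:**
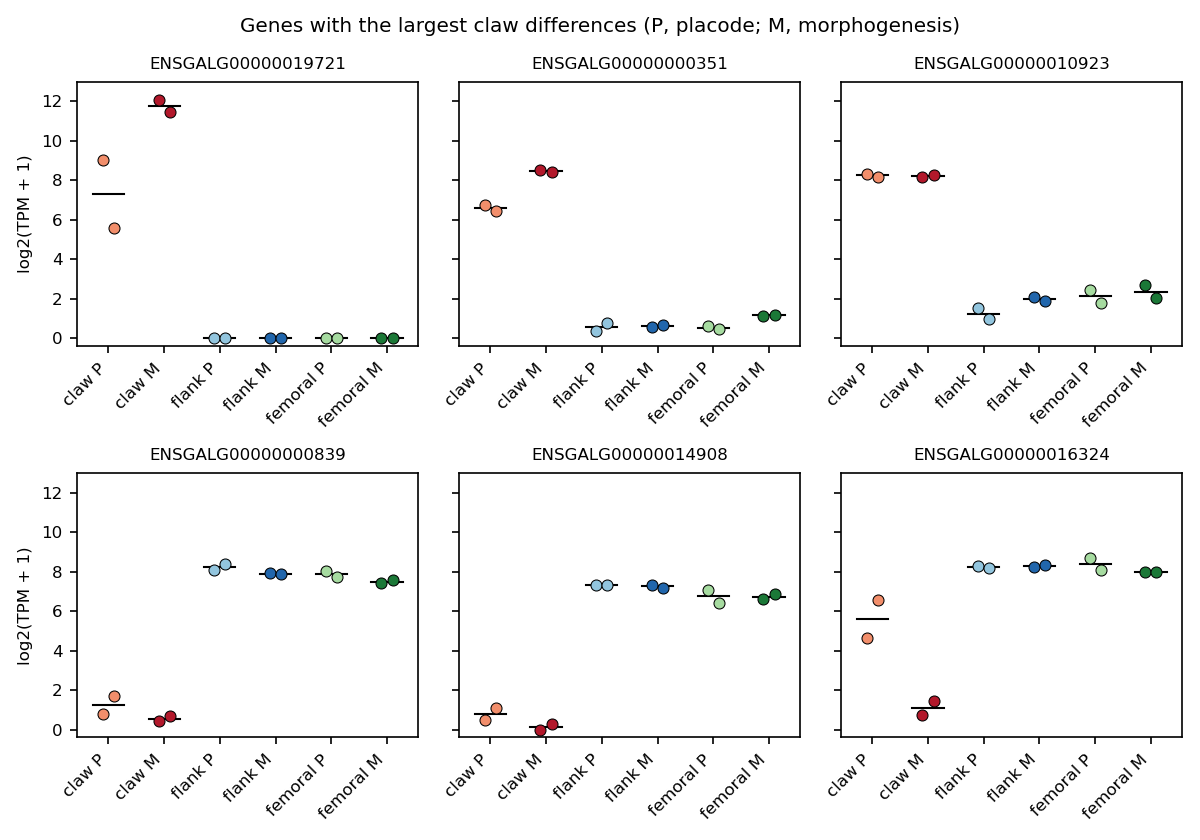
Level by library as log2(TPM + 1) for the genes with the largest claw and scale differences. Each point is 1 library, grouped by appendage and phase. ENSGALG00000000351 lies at 84.8 TPM or more in claw and at 1.28 TPM or less in scale, and ENSGALG00000000839 lies at 2.27 TPM or less in claw and at 169 TPM or more in scale.

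The balance of calls varied with abundance, beside 42% higher and 30.9% lower over all tested genes. Abundance here is the mean over the same libraries, 8 of scale and 4 of claw. Genes high in scale thus rank higher by construction, and the part of this sorting in the balance was not tested. Among the 100 genes with the highest mean level, 23 were higher in claw and 68 were lower, with a median of -0.46 beside 0.09 over all tested genes. Among 940 genes with a mean of at least 100 TPM, 535 were higher (56.9%) and 247 lower (26.3%). From 10 to 100 TPM, 2021 of 4554 genes were higher (44.4%) and 1292 lower (28.4%). In the 1 to 10 TPM range, 578 of 1993 genes were higher (29%) and 799 lower (40.1%). Under 1 TPM, 147 of 324 were higher (45.4%) and 75 lower (23.1%), with 51 higher and 3 lower by at least 2-fold. A gene of this lowest range passed the filter only through libraries above its own mean, with 4 libraries of claw and 8 of scale. The counts of this range carry that selection. Rescaling left the top 100 at 19 higher and 71 lower, and the 1 to 10 TPM range at 532 and 911. It gave 466 and 272 at 100 TPM or more, and 141 and 82 under 1 TPM. From 10 to 100 TPM, the largest range, it gave 1780 and 1587, nearer to balance, and moved the median from 0.12 to 0.03.

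Genes with no emu value were spread like the others. Of 2609 such genes tested, 1094 (41.9%) were higher and 838 (32.1%) lower, beside 2187 (42%) and 1575 (30.3%) of 5202 genes with an emu value. 

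The 790 genes at least 2-fold higher in claw were chosen on these libraries, and their summed level is a description. As a share of the TPM listed over genes with an alligator value, they made up 19.3% and 19.6% in the claw morphogenesis libraries. The share was 11.7% and 9.42% in claw placode, and 3.50% to 5.47% in the scales. The 625 genes at least 2-fold lower made up 2.49% to 4.84% in the claws and 9.01% to 12.1% in the scales. Within claw placode, replicate 2 lay below replicate 1 for 556 of the 790 and for 107 of the 625, beside 3205 of all 7811 genes.

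In place of named markers, layer lists were drawn from the chicken libraries. The dermis-enriched list held 1075 genes at least 4-fold higher in dermis than in epidermis on average over 10 appendage classes. Each was also higher in dermis, by any amount, in at least 9 of the 10. The reverse rule gave 421 genes for the epidermis-enriched list. Of the dermis-enriched list, 677 have an alligator value and 479 were tested, and 156 (32.6%) were higher and 39.5% lower in claw, beside 42% and 30.9% of all tested genes, with a median of -0.09 beside 0.09. Median-of-ratios rescaling gave 145 higher and 205 lower, and counts by phase were not taken after it. As deposited, the balance differed between phases, and the median of the list lay below that of all genes at both. At placode 32.8% of the list were higher and 26.3% lower (median 0.12), beside 38% and 17.9% of all genes (median 0.16). At morphogenesis 24.2% were higher and 44.3% lower (median -0.36), beside 35.7% and 34% (median 0.01). The summed level of the 677 was 8960 to 10687 TPM in claw placode and 9203 to 9707 TPM in claw morphogenesis. In the scales it was 10732 to 12240 TPM in flank placode, 14204 to 19078 TPM in femoral placode, 9470 to 9798 TPM in flank morphogenesis and 7609 to 8222 TPM in femoral morphogenesis. Femoral placode was thus the highest group, claw placode lay below every scale placode library, and at morphogenesis claw lay within the range of the scales; between 28 and 58 of the 677 genes were listed at 0 throughout a group. The part of this list in the claw differences was not tested.

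Of the epidermis-enriched list, 235 genes were tested; 51.9% were higher in claw and 78 (33.2%) lower, beside 42% and 30.9% of all tested genes. The median was 0.30 beside 0.09. Its summed level over 252 genes was 61356 to 65924 TPM in claw morphogenesis and 33309 to 39288 TPM in claw placode, and at most 39195 TPM in any scale library. The 2 claw morphogenesis libraries were above every other library.

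At the placode phase alone, 2967 genes were higher in claw (38%) and 1401 lower (17.9%), 55.9% in all, with 763 (9.77%) and 466 (5.97%) of at least 2-fold. The median was 0.16, and median-of-ratios rescaling moved it to -0.01, with 2080 genes higher and 2061 lower. Calls in the lower direction depended on 1 claw library: 927 without claw placode replicate 1. ENSGALG00000019721 again led, followed by ENSGALG00000010923. The latter had 320 and 289 TPM in claw placode against 1.84 and 0.933 TPM in flank placode and 4.50 and 2.43 TPM in femoral placode, with no overlap. Its difference was 6.58 (SE 0.23, adjusted p = 6.5e-09). The lowest pair was the same as over both phases, ENSGALG00000000839 at -6.82 (SE 0.21, adjusted p = 5.4e-09) and ENSGALG00000014908 at -6.26 (SE 0.20, adjusted p = 5.4e-09).

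At morphogenesis alone, 2785 genes were higher (35.7%) and 2655 lower (34%), 69.6% in all. Of these, 976 higher (12.5%) and 1007 lower (12.9%) differed by at least 2-fold, and 115 and 59 by at least 8-fold. The median was 0.01, so the directions were close to balance in the values as deposited. ENSGALG00000000351 reached 7.60 (SE 0.15, adjusted p = 1.1e-10). ENSGALG00000016324 was, with ENSGALG00000000839, the lowest in claw: 0.677 and 1.71 TPM in claw morphogenesis against 301 and 321 TPM in flank and 250 and 256 TPM in femoral morphogenesis. No claw value came near the scales, and the difference was -7.05 (SE 0.45, adjusted p = 2.1e-06).

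Much of the claw difference was found at both phases. Higher at both were 2109 genes, 71.1% of the placode list and 75.7% of the morphogenesis list. Lower at both were 1206 genes, 86.1% of the placode list and 45.4% of the longer morphogenesis list. In opposite directions were 163 genes higher at placode and lower at morphogenesis and 25 genes the other way. Across the 7811 genes, which are not independent replicates, the differences at the 2 phases correlated at r = 0.774 and rho = 0.745, given as a description.

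**Figure D3:**
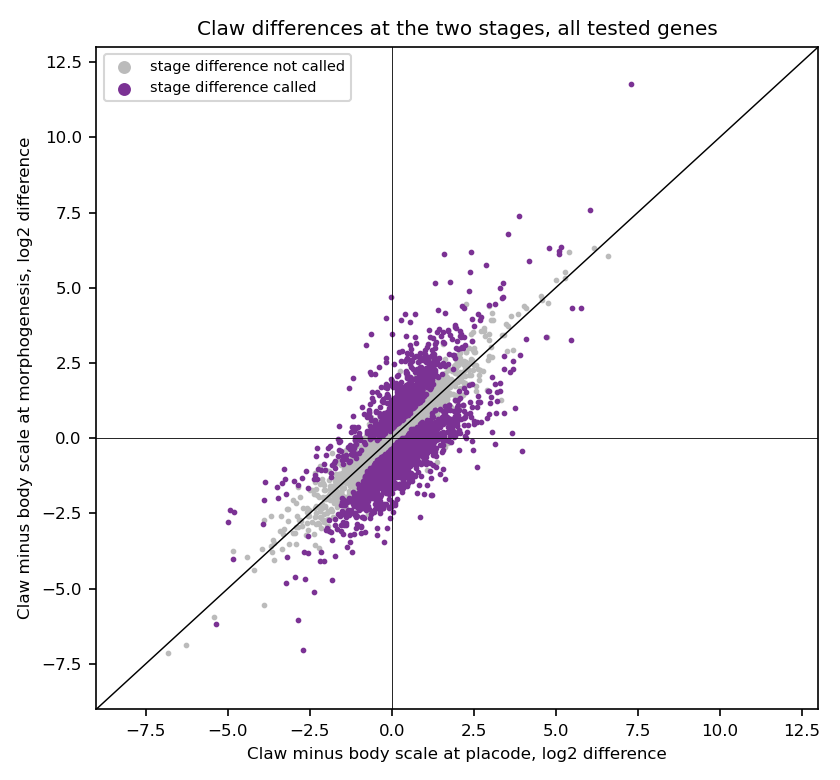
Claw minus body scale at the placode phase (x axis) against the same at morphogenesis (y axis), both in log2(TPM + 1), for 7811 genes; each point is 1 gene. Points spread along the diagonal (r = 0.774), and the 2760 genes whose difference changed with phase, in purple, lie to either side of it.

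The claw difference changed between phases for 2760 genes (35.3%), by a test of the difference itself: it grew towards claw in 961 (12.3%) and fell in 1799 (23%). Changes of at least 2-fold numbered 326 (4.17%) and 637 (8.16%). Median-of-ratios rescaling moved the median from -0.13 to 0.02 and gave 1536 and 1332, so the preponderance of falls depended on the scaling. That rescaling brings medians near 0 by construction, so it cannot decide whether falls were more frequent. Without claw placode replicate 2 there were 694 and 1176. Over all tested genes, the level as deposited rose from placode to morphogenesis in 13.2% and fell in 41% in claw. In scale it rose in 11.6% and fell in 31.6%. Such rises and falls were not counted after rescaling. Of the 961 genes, the level in claw itself rose from placode to morphogenesis in 646 and fell in 13, while scale fell in 398 and rose in 88. Of the 1799, the level in claw fell in 1555 and rose in 13, while scale rose in 381 and fell in 415. At morphogenesis 1284 of the 1799 were lower in claw than in scale, beside 34% of all tested genes. The levels of claw and scale are terms of the test that chose both lists. These counts thus follow in part from that choice and are a description. Claw phases were 1 Ferguson stage apart and scale phases 1 to 3 stages apart, so the 2 intervals were not matched.

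ENSGALG00000024296 had the largest growth. It was at 0 and 0.143 TPM in claw placode and at 34.4 and 23.9 TPM in claw morphogenesis, and ran from 0 to 0.254 TPM in the scales (median 0.114). Only the claw morphogenesis libraries held a value above 1 TPM. The gene thus passed the filter through the group where it is high, and its p-values carry that selection. The change was 4.72 (SE 0.24, adjusted p = 3.2e-06); the difference from scale was -0.02 at placode (adjusted p = 0.91) and 4.69 at morphogenesis (SE 0.17, adjusted p = 6e-09). Its size depended on the pseudocount, at 7.13 with 0.1 TPM and 2.72 with 5 TPM.

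ENSGALG00000006322 rose in claw from 3.54 and 2.25 TPM to 117 and 48.5 TPM, against 0.0449 to 0.489 TPM in scale (median 0.161). Claw was above scale at both phases, and further above at the later. This gene passed the filter through claw libraries alone, so its p-values carry the same selection. The change was 4.55 (SE 0.40, adjusted p = 4.9e-05). ENSGALG00000019721 also grew, by 4.46 (SE 1.06, adjusted p = 0.013), with a wide spread between its claw placode libraries. With scale at 0, this SE and p-value understate that spread. The value was 2.74 without claw placode replicate 2, and 4.14, no longer called, without claw morphogenesis replicate 1. ENSGALG00000000351 grew by 1.55 (SE 0.22, adjusted p = 0.00045).

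Of the genes whose difference fell, ENSGALG00000010163 was high in the early claw. It was at 17.4 and 30.6 TPM in claw placode and at 0.901 and 1.32 TPM in claw morphogenesis, against 0.171 to 3.55 TPM in scale (median 0.923). The claw placode libraries were above every other, and the claw morphogenesis libraries lay inside the scale range. The change was -4.40 (SE 0.49, adjusted p = 0.00018), from 3.98 at placode (adjusted p = 5.2e-06) to -0.42 at morphogenesis (adjusted p = 0.29), and it was -2.53 with a pseudocount of 5 TPM.

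ENSGALG00000016324 was at 24.3 and 93.6 TPM in claw placode, the replicates differing widely, before the low values of claw morphogenesis given above; scale held 250 to 413 TPM (median 298) throughout. All claw values were below all scale values. The change was -4.35 (SE 0.64, adjusted p = 0.0016), -3.40 without claw placode replicate 2 and -5.30 without replicate 1. From placode to morphogenesis its level changed by -4.52 in claw (SE 0.53, adjusted p = 0.00019) and by -0.17 in scale (adjusted p = 0.74).

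**Figure D4:**
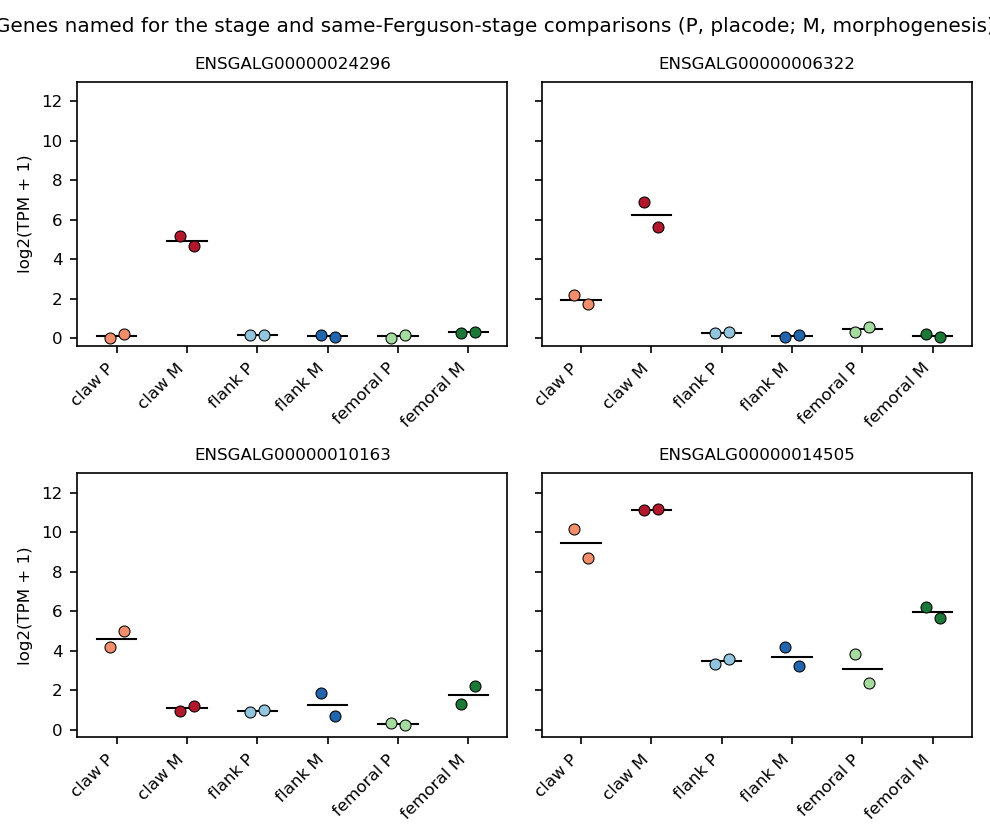
Level by library as log2(TPM + 1) for genes named in the phase and same-Ferguson-stage comparisons. Each point is 1 library, grouped by appendage and phase. ENSGALG00000024296 is above 1 TPM in the claw morphogenesis libraries alone of the 12, and ENSGALG00000010163 is above 17 TPM in the claw placode libraries alone.

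Because claw and scale phases fall at different ages, claw was also set against scale placodes of its own Ferguson stage: claw placode against femoral placode at stage 21, and claw morphogenesis against flank placode at stage 22, averaged. This gave 2889 genes higher (37%) and 2574 lower (33%), 69.9% in all, with 832 (10.7%) and 776 (9.93%) of at least 2-fold. It shares its libraries with the comparison above, so the values stand side by side only.
ENSGALG00000019721 led here as well, and ENSGALG00000014505 followed. The latter had 1150 and 418 TPM in claw placode against 13.0 and 4.17 TPM in femoral placode, and 2220 and 2310 TPM in claw morphogenesis against 9.05 and 11.02 TPM in flank placode. The libraries did not overlap at either stage, and the difference was 7.02 (SE 0.41, adjusted p = 1e-06). Its level in femoral morphogenesis, 74.3 and 49.01 TPM, was the highest among the scales, and over both phases its difference was 6.25 (SE 0.36, adjusted p = 6.8e-07). ENSGALG00000000839 at -7.17 (SE 0.17, adjusted p = 4.6e-10) and ENSGALG00000014908 at -6.59 (SE 0.16, adjusted p = 3.3e-10) were again the lowest.

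The alligator claw difference was then set beside that of chicken and emu claw against scutate scale, over 4530 genes tested in all 3 species together. As deposited, the median difference was 0.09 in alligator, -0.37 in chicken and -0.19 in emu. After median-of-ratios rescaling, which brings them there by construction, all 3 were close to 0 (0.01, -0.03 and 0.01). Overlaps are therefore given on the rescaled values first. On these values, the calls higher and lower in claw were 34% and 32.3% of the 4530 genes in alligator, 27.1% and 30% in chicken, and 26.4% and 24.5% in emu. Of 1542 genes higher in alligator claw, 628 (40.7%) were also higher in chicken claw, where they were 51.1% of the list, and 278 were lower there. Of 1462 genes lower in alligator claw, 648 (44.3%) were also lower in chicken, 47.8% of its list, and 244 were higher. For emu, 624 genes were shared in the higher direction (40.5% of the alligator list and 52.2% of the emu list) and 563 in the lower (38.5% and 50.6%), with 209 and 206 opposed. On the values as deposited, the calls higher and lower in claw were 39% and 26.3% of the 4530 genes in alligator, 13% and 57.3% in chicken, and 17.5% and 37.7% in emu. There, 321 of 1766 genes higher in alligator claw (18.2%) were also higher in chicken and 812 were lower. Emu claw placode has 1 library, and in emu too the lanes follow the appendage. By title, 1 emu claw and 1 emu scutate scale library of morphogenesis share a specimen number, and the fit took them as independent.

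By a test of the difference itself, the claw effect in alligator differed from the equal mean of the birds in 2991 of 4530 genes (66%). It was larger in alligator in 2346 (51.8%) and smaller in 645 (14.2%) as deposited, with 631 (13.9%) and 261 (5.76%) of at least 2-fold and a median of 0.37; rescaling gave 1267 and 1234 with a median of 0.01. Of the 1267, 900 were called higher in alligator claw, beside 34% of all 4530 genes on the rescaled values. Among the 900, the birds' mean was not called in 420 and was lower in 268. Of the 1234, 823 were called lower in alligator claw, beside 32.3% of all 4530 genes. Among the 823, the birds' mean was not called in 369 and was higher in 246. Both lists were chosen by the difference itself, so these counts follow in part from that choice and are a description. The share of all 4530 genes called for the birds' mean is not given here. Alligator is here compared through body scales and the birds through foot scales, so species and scale site cannot be told apart.

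ENSGALG00000000351 differed most towards alligator. Chicken claw held 0.237, 6.32, 2.50 and 0.707 TPM against 0.931 to 2.19 TPM in chicken scutate scale, which overlap, and emu claw held 13.3, 12.5 and 8.14 TPM against 53.4 to 74.9 TPM in emu scutate scale, where claw is the lower. The claw difference was thus 6.82 in alligator, 0.21 in chicken (adjusted p = 0.63) and -2.34 in emu (adjusted p = 0.00018). Alligator exceeded the birds' mean by 7.89 (SE 0.43, adjusted p = 4.1e-10).

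ENSGALG00000019663 was next, at 5.64 above the birds (SE 0.39, adjusted p = 6.4e-09). Alligator claw held 338 and 138 TPM at placode and 288 and 202 TPM at morphogenesis, against 1.04 to 5.54 TPM in scale (median 3.42). Chicken held it in both appendages, at 70.2 to 108 TPM in claw and 23.6 to 148 TPM in scutate scale, and in emu no library was above 1.70 TPM. The alligator groups alone were separate; the claw difference was 0.25 in chicken (adjusted p = 0.53) and 0.06 in emu (adjusted p = 0.91).

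Towards the birds, ENSGALG00000016324 differed most, by -4.55 (SE 0.42, adjusted p = 1.8e-07). Emu claw held 53.1, 55.5 and 64.0 TPM against 37.1 to 63.0 TPM in emu scutate scale, and no chicken claw or scutate library exceeded 7.68 TPM. Claw and scale overlapped in emu, and the claw difference was -4.87 in alligator, -0.81 in chicken (adjusted p = 0.059) and 0.16 in emu (adjusted p = 0.77). ENSGALG00000000839 was lower in claw in all 3 species, at -6.98 in alligator, -2.33 in chicken (adjusted p = 0.0003) and -3.12 in emu (adjusted p = 0.0001). Its alligator minus birds value was -4.26 (SE 0.53, adjusted p = 3.6e-06). In chicken the libraries overlapped, with claw at 0.0515 to 4.98 TPM and scutate scale at 2.14 to 19.8 TPM. In emu they did not, at 0.665 to 2.95 TPM and 16.6 to 20.0 TPM. ENSGALG00000010923 was higher in claw in all 3, at 6.32, 3.67 and 3.94 (adjusted p = 5e-14, 4e-10 and 9.4e-10).

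**Figure D5:**
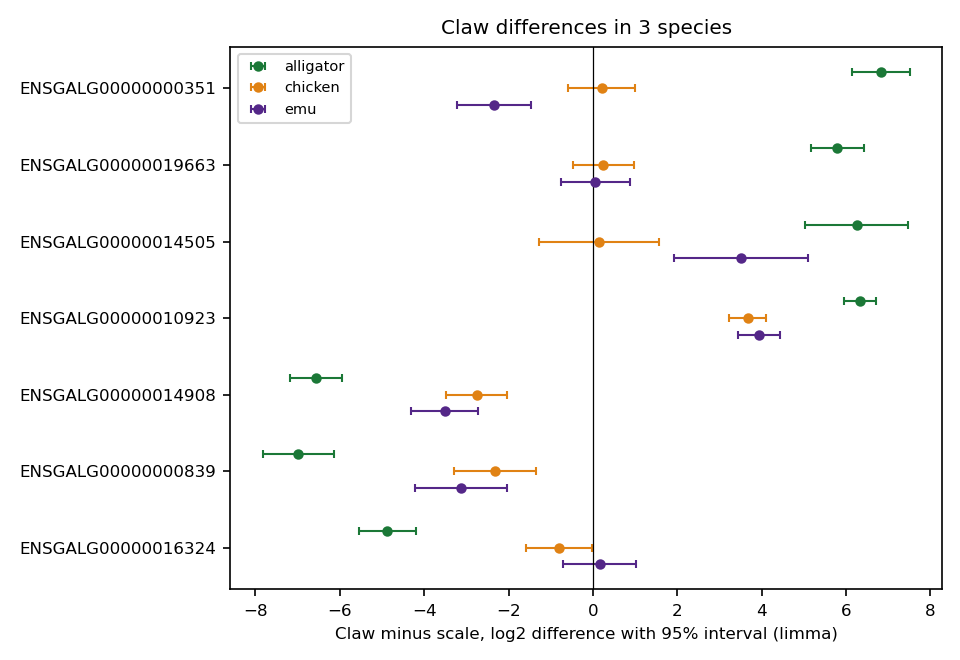
Claw minus scale in log2(TPM + 1) for named genes with a value in alligator, chicken and emu; points are the fitted differences in the 3-species fit and bars are 95% confidence intervals. ENSGALG00000000351 lies at 6.82 in alligator, 0.21 in chicken and -2.34 in emu, while ENSGALG00000010923 is above 3 in all.

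ENSGALG00000019721, which has no emu value, was higher in claw than in scutate scale in chicken too. It held 160 and 408 TPM in chicken claw placode and 1543 and 791 TPM in chicken claw morphogenesis, against 2.80 to 52.6 TPM in scutate scale. Chicken claw and scutate scale did not overlap, and as in alligator the morphogenesis claws were above the placode claws. Set against chicken alone over 7167 genes, its alligator difference was the larger by 4.32 (SE 0.74, adjusted p = 0.00022). Both that size and its SE depend on the alligator scales being listed at 0. ENSGALG00000024296, also without an emu value, held 2.45 and 50.02 TPM in chicken claw placode and 204 and 222 TPM in claw morphogenesis, against 0.305 to 2.11 TPM in scutate scale; its difference was 4.94 in chicken, and alligator minus chicken was -2.60 (SE 0.76, adjusted p = 0.008). The dermis-enriched list summed to 3856 and 9732 TPM in the chicken claw placode libraries and to 8996 and 7616 TPM in the scutate scale placode libraries. Replicate 1 of claw placode was thus the low one of these 4. At morphogenesis the list summed to 5519 and 4168 TPM in chicken claw and to 3605 and 4537 TPM in scutate scale. These libraries were among those from which the list was drawn. The part of this list in these values was not tested.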

How the data were processed

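Epidermis RNA-seq was measured in the libraries described above. The authors deposited a table of TPM values by gene, scaled across species as its column names say. TopHat2 2.0.6, HTSeq 0.5.3p9 and CASAVA appear, without a role, in the submitters' processing notes. How the scaling was set, and on which genome builds, is not given in the sources used here. TPM keeps no depth, so precision rests on the replicates (2 a group). From the deposited TPM, log2(TPM + 1) was fitted with limma 3.58.1 (R 4.3.3; one mean per group, eBayes with trend and robust) over genes at 1 TPM in at least 2 libraries, with Benjamini-Hochberg adjustment; the method was tested on simulated data. Named genes are the 2 identifiers with the largest positive and negative difference per comparison among those called, over both phases with the further condition that claw and scale libraries do not overlap and the sign is the same at each phase. Members, lists and tests were chosen with earlier results of these data known. Lists of gene symbols could not be applied to the identifiers. Alternatives were other pseudocounts, filters, scalings and scale references, an additive fit of appendage and phase, chicken alone as the bird, calls by non-overlap, and each library left out in turn. No 2 libraries held identical values (0 of 66 pairs).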

Additional observations from a re-analysis of the deposited data

Results flagged for a closer look

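The claw difference changed between placode and morphogenesis for 2760 genes and differed between alligator and the birds for 2991 genes, by tests of the difference itself. With 2 libraries in a group, no library was tested as standing apart from its group.

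Among the named genes, the change between phases passed the test for ENSGALG00000000351 (1.55), ENSGALG00000006322 (4.55), ENSGALG00000019721 (4.46) and ENSGALG00000024296 (4.72), which grew towards claw. It passed with a fall for ENSGALG00000010163 (-4.40) and ENSGALG00000016324 (-4.35).

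Between alligator and the birds' mean, the difference was positive for ENSGALG00000000351 (7.89), ENSGALG00000019663 (5.64), ENSGALG00000014505 (4.43) and ENSGALG00000010923 (2.52). For ENSGALG00000014505 the birds were unlike: its claw difference by limma was 0.14 in chicken (adjusted p = 0.86) and 3.51 in emu (adjusted p = 0.0011). The difference from the birds' mean was negative for ENSGALG00000016324 (-4.55), ENSGALG00000000839 (-4.26) and ENSGALG00000014908 (-3.43). Against chicken alone, for genes with no emu value, it was 4.32 for ENSGALG00000019721, 1.35 for ENSGALG00000010163 and -2.60 for ENSGALG00000024296.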

How the results depend on the processing

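Median-of-ratios rescaling moved the genes whose claw difference grew between phases to 1536, and those larger and smaller in alligator than in birds to 1267 and 1234; quantile normalization gave 1286 and 1193 for the latter and 2150 genes lower in claw at placode. With chicken alone as the bird, an alternative chosen after seeing the data, 3780 of 7167 genes were larger and 1000 smaller in alligator. With both birds 4530 genes were tested, so the 2 pairs of counts have different bases. Median-of-ratios rescaling gave 1972 and 1882 with chicken alone. Calls by libraries that do not overlap, also added after seeing the data, were 1668 and 726. Leaving out each alligator library in turn gave 927 to 1503 genes lower in claw at placode and 1176 to 1949 whose difference fell between phases. For the named genes, 799 of 800 alternative values kept direction and call. The exception is the 4.14 of ENSGALG00000019721 given above. A gene that failed the filter of a setting gave no value there. With birds and a filter of 5 TPM this held for ENSGALG00000000351, ENSGALG00000019663 and ENSGALG00000016324. It also held for ENSGALG00000024296 when either claw morphogenesis library was left out. The genes were named for large differences in these libraries, which favoured keeping direction and call. With a pseudocount of 5 TPM, ENSGALG00000010923 exceeded the birds by 1.58. No paired analysis was possible because no specimen number is shared between alligator groups. TPM leaves depth unknown, so low values have no counting limit.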

Other observations

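Few genes were present in 1 appendage and absent from the other. Present meant at least 10 TPM in every library, and absent meant under 1 TPM in every library. Of 9295 genes with an alligator value, 6 were present in the 4 claw libraries and absent from the 8 scale libraries. Of these, 2 were listed at 0 in every scale library. The reverse was met by 3 genes. Of the 6, 1 reached 10 TPM in all 4 chicken claw libraries, 2 reached it in some chicken foot scale library and 3 in some chicken feather library. Of the 4 with an emu value, 0 reached it in all emu claw libraries. Of the 3 scale genes, 0 reached 10 TPM in any chicken foot scale or feather library, and 0 reached it in all 4 chicken claw libraries. The shares of all genes that reach 10 TPM in these bird libraries were not taken, so the bird counts are a description only.

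From placode to morphogenesis, the level in claw rose in 1031 genes (13.2%) and fell in 3206 (41%). In body scale it rose in 905 and fell in 2467. Both pairs of counts are from the values as deposited, and counts after rescaling were not taken.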
